A study of Mus musculus with 20 samples.

Results

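The 10 genes described here respond to glucocorticoids, the steroid hormones of the adrenal cortex, and were followed across the hearts of male and female mice on 2 diets. They are Fkbp5, Tsc22d3, Sgk1, Zbtb16, Klf9, Cdkn1a, Ddit4, Mt1, Mt2 and Nr3c1, chosen by name out of 48969 genes with exon counts in the deposited files. All 10 passed the expression filter, which 18051 genes (36.9%) passed.

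Polyadenylated heart RNA was sequenced from wild-type C57BL/6 mice aged 12 weeks. The groups compared were PA-F with 5 libraries, Chow-F with 5, PA-M with 5 and Chow-M with 4. F and M are females and males. PA is taken here as the high-fat diet, because the series text names chow and a high-fat diet and no label spells PA out. A further Chow-M library, replicate 4, was counted per gene and not per exon piece, and is left out of every comparison. It was joined only in an alternative setting, given near the end. The labels carry no length of feeding, hour of collection, litter or extraction batch, and do not state that libraries come from different mice. A p-value here therefore reflects how far these libraries scatter, which may in part be technical. No steroid was given according to the labels, and hormone levels are not among the data.

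Glucocorticoids such as corticosterone bind the glucocorticoid receptor, a transcription factor encoded by Nr3c1. The hormone-bound receptor moves into the nucleus and acts at palindromic DNA elements, where it raises the transcription of a set of genes shared by many tissues. Fkbp5, Tsc22d3 (also called Gilz), Sgk1, Zbtb16 and Klf9 are used widely as readouts of that response, and in the heart the receptor is known to act in cardiomyocytes. Cdkn1a, Ddit4, Mt1 and Mt2 also answer to other inputs, including p53, hypoxia and energy stress, and metals. Blood glucocorticoids rise and fall over the day.

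Promoters of 3 members are shown because they hold the receptor palindrome or most of the metal elements found. Of the 10 genes, 8 had at least 1 promoter in RefSeq's GRCm38.p6 table (16 promoters in all), and the 250 bases before each start were searched on both strands. The first promoter, at chr10:21993640-21993889 on the plus strand, lies directly before the upstream first exon of Sgk1, which encodes a kinase of ion transport and cell survival. Capitals mark the receptor palindrome, searched as GNACA and TGTNC with 3 bases between them, which lies 188 to 176 bases before the start.
Sgk1: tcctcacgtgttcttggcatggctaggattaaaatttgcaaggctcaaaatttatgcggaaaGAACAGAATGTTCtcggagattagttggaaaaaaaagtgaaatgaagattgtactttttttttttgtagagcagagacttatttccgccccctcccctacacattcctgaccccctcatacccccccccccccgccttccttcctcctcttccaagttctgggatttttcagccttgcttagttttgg
The promoter of Mt1, which encodes a metal-binding metallothionein, lies at chr8:94178839-94179088 on the plus strand. Capitals mark a match to the same palindrome, 94 to 82 bases before the start.
Mt1: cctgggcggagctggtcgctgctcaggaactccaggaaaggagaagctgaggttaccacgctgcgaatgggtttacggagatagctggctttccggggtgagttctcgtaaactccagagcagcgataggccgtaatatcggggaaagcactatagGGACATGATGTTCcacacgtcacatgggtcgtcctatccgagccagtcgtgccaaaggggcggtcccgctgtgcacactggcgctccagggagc
The promoter of the neighbouring metallothionein gene Mt2 lies at chr8:94172368-94172617 on the plus strand. Capitals mark 3 cores of the metal response element (TGCACNC or TGCGCNC, the last of them on the other strand).
Mt2: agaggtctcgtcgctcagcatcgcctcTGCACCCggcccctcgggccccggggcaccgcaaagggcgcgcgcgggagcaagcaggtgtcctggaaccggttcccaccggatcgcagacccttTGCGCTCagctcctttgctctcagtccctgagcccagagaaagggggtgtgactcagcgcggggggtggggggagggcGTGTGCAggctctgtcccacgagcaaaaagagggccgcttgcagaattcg

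The palindrome was found in 127 of 32851 promoters of this length (0.387%). The Sgk1 match also has the stricter form, AGAACA and TGTTCT with 3 bases between them, which 3 promoters (0.00913%) held. That form was added to the search after the promoters had been seen, and it overlaps the palindrome above and 2 matches to the half-site AGAACA. Metal response cores are common, in 21.4% of promoters, and Ddit4 and Mt1 hold 1 each. The half-site alone stands in 16.1%, among them 1 promoter of Tsc22d3 and 2 other promoters of Sgk1. Fkbp5 and the Sgk1 promoter above each hold 1 E-box (CACGTG, 6.02% of promoters), the element of the circadian clock's core factors, and no member promoter holds a D-box (TTATGTAA or TTACGTAA, 0.931%). Each match is a description of letters, not a bound site.

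Before the results, 2 libraries need naming. PA-F 4 and PA-F 5 stood apart from the other 17. Their scores on the first principal component, which held 46.1% of the variance, were 95.0 and 132, against -20.9 to -1.89 in the rest. Their log2 counts rose with gene GC content by 0.53 and 0.81 per 10 percentage points of GC, while the slope in the other libraries was -0.15 to 0.07. The nuclear RNA Malat1 stood at 117 and 63.8 CPM in those 2 libraries, against 1130 to 1531 in the others, where CPM are counts scaled to a common library size by the TMM method. Results are therefore given with and without them. Each gene's spread was estimated over all 4 groups in 1 fit. These 2 libraries thus also enter the standard errors and p-values of comparisons that hold no PA-F library. Totals over all pieces ran from 57805110 to 85794067 per library.

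**Figure D1:**
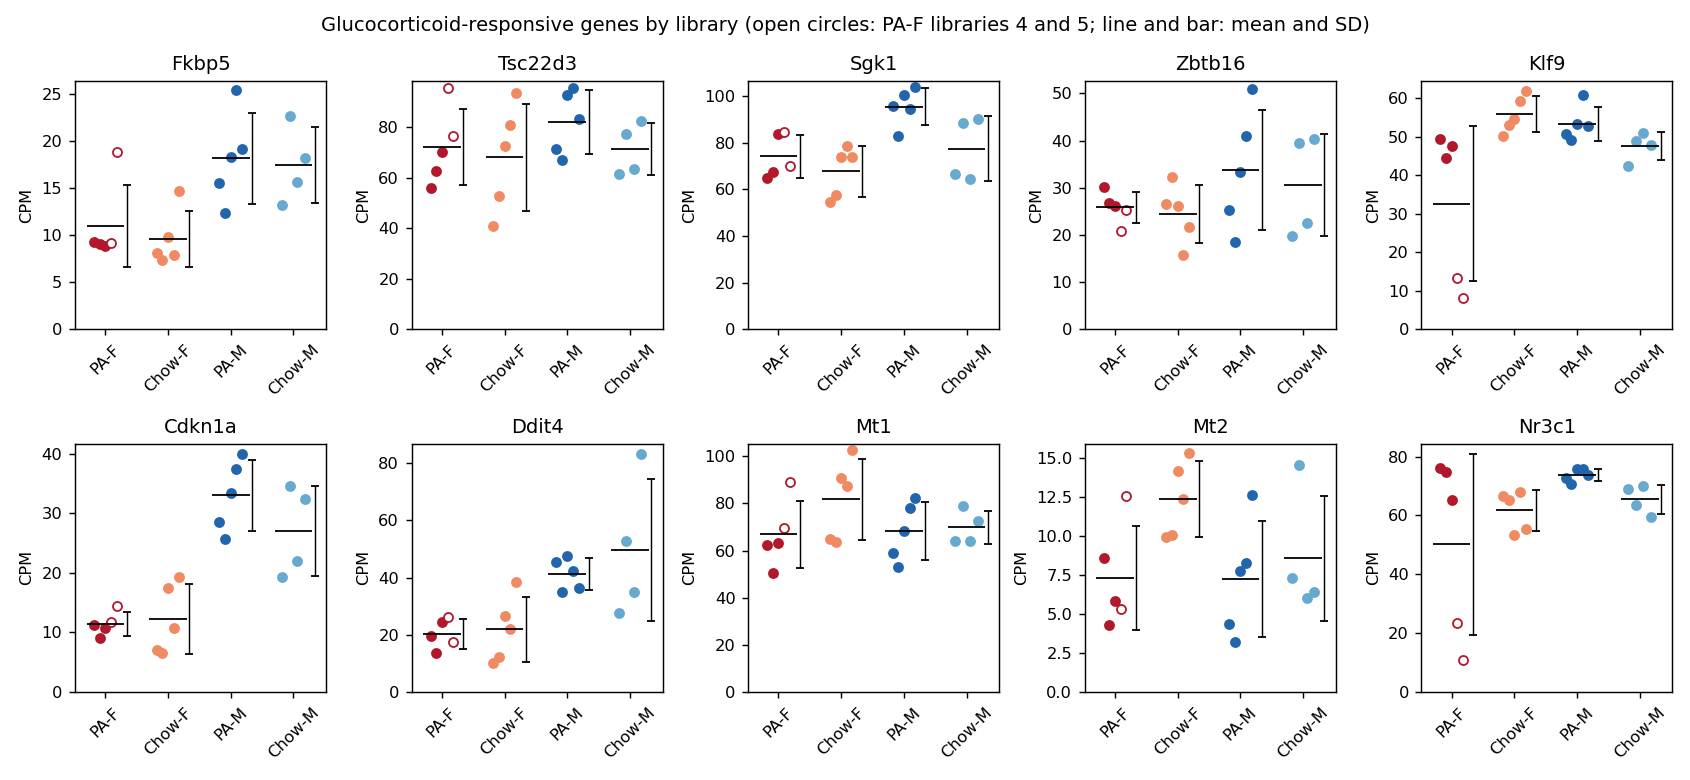
Level of each of the 10 genes in every library, in CPM (y axis, from 0), with groups PA-F, Chow-F, PA-M and Chow-M along the x axis. Points are libraries, open circles are PA-F 4 and 5, horizontal lines are means and bars are SDs. Cdkn1a is lower in all 10 female libraries than in any of the 9 male ones, and the 2 open circles are the low points of Klf9 and Nr3c1.

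Measured per kilobase of exon, which allows genes to be ranked, Mt1 was the most abundant of the 10 and Fkbp5 the least. In Chow-M the mean levels were 56.1 CPM per kilobase for Mt1 and 29.5 for Ddit4. Tsc22d3 at 16.4, Sgk1 at 15.8, Mt2 at 14.6, Klf9 at 14.6 and Cdkn1a at 12.2 formed a middle group. Nr3c1 at 8.82, Zbtb16 at 5.78 and Fkbp5 at 2.74 CPM per kilobase followed. From Tsc22d3 down to Cdkn1a, neighbours in this order differed by less than the SD of Cdkn1a, which was 27.9% of its mean, and Ddit4 stood above Tsc22d3 by less than its own SD, 49.8% of its mean. A read crossing several exon pieces was counted in each, so genes cut into many short pieces carry raised levels on this scale.

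The receptor gene itself showed no call for diet. Nr3c1 had 76.2, 74.9, 65.4, 23.3 and 11.01 CPM in PA-F 1 to 5, against 66.7, 65.3, 53.3, 67.9 and 55.3 CPM in Chow-F 1 to 5. It had 72.6, 70.7, 75.7, 75.7 and 73.6 CPM in PA-M, against 69.0, 63.5, 69.9 and 59.4 CPM in Chow-M 1, 2, 3 and 5. The 2 low values are PA-F 4 and 5, and the 5 PA-M libraries lie above all 4 Chow-M libraries, as was so for 3.61% of all genes. Neither difference passed the test (edgeR's quasi-likelihood F-test with Benjamini-Hochberg adjustment over all 18051 genes, threshold 0.05). The log2 change with high fat was -0.30 ± 0.34 in females (SE, adjusted p = 0.639) and 0.17 ± 0.36 in males (adjusted p = 0.999). The female value turned to 0.22 ± 0.08 without PA-F 4 and 5 (adjusted p = 0.0971) and the male value stayed at 0.17 with an SE of 0.07 (adjusted p = 0.245). Nr3c1 has the lowest GC content of the 10 genes, 42.2%, and was low in PA-F 4 and 5, whose counts rose with GC content. Tsc22d3 at 48.3% and Sgk1 at 48.6% have GC contents near that of Klf9 (47.5%), which was also low there, and they were not low in those libraries. The part of GC content in the low values was not tested.

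Around the receptor, 16 of 18 listed genes of steroid handling were tested, among them chaperones, coregulators and the enzymes that activate or inactivate corticosterone. Hsd11b1, the enzyme that regenerates active corticosterone inside cells, was the member of that list with the strongest difference. It averaged 8.46 ± 1.41 CPM in PA-F and 19.01 ± 1.51 CPM in PA-M (SD, n = 5 each). On chow it averaged 9.15 ± 2.14 CPM in Chow-F (n = 5) and 19.3 ± 1.55 CPM in Chow-M (n = 4). The log2 difference of females over males was -1.17 ± 0.14 on high fat (adjusted p = 6.94e-05, edgeR) and -1.07 ± 0.14 on chow (adjusted p = 0.000271). Diet gave it -0.11 ± 0.14 in females and -0.02 ± 0.14 in males, and neither passed (adjusted p = 0.662 and 0.999).

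Of these 16 genes of steroid handling, 1 rose and 0 fell with diet in females, where 2.54% of all genes were called, and 0 passed in males, where 0.765% were. Between the sexes, 0 were higher and 1 lower on chow (3.22% of all genes called), and 1 was higher and 1 lower on high fat (10.3% called). In the fit without PA-F 4 and 5, the sexes differed in 6 of them on chow and 3 on high fat, all lower in females, beside 10.4% of all genes on each diet. This list includes the members Nr3c1 and Fkbp5, and Fkbp5 is 1 of the genes lower on each diet in that fit. The medians of the 16 with all libraries were -0.06, 0.04, -0.16 and -0.26 in those 4 comparisons, beside -0.02, 0.00, 0.01 and 0.01 over all genes. Without PA-F 4 and 5 they were 0.08, 0.04, -0.16 and -0.08, so that the female diet median changed sign. The mineralocorticoid receptor gene Nr3c2, whose protein also binds corticosterone, averaged 16.6 ± 4.17 CPM in PA-F, 18.3 ± 2.19 in Chow-F, 20.2 ± 0.77 in PA-M and 17.04 ± 1.23 in Chow-M, and passed in no comparison. Hsd11b2, which inactivates corticosterone, averaged 0.0525 to 0.108 CPM over the groups, against 0.0538 CPM for 3 counts in the smallest library. Serpina6, the blood carrier of corticosterone, was at 0 in 3 groups.

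The comparison of diets asked whether the glucocorticoid-responsive genes moved with high-fat feeding in either sex. None of the 10 passed the test in females, where 2.54% of all genes were called, nor in males, where 0.765% were. At an unadjusted p under 0.05, 2 members (Klf9 and Mt2) differed in females and 1 (Sgk1) in males, beside 18.8% and 8.51% of all genes, and DESeq2 called 0 members in either sex, beside 6.67% and 1.56% of all genes it tested. The median log2 change of the 10 was -0.10 in females, beside -0.02 over all genes, and 0.16 in males, beside 0.00. The difference between the 2 diet effects passed in 0 of the 10 and in 0 genes overall (0% called), with 0 members and 1837 genes (10.2%) at an unadjusted p under 0.05. DESeq2 called 0 members and 49 genes (0.272%) for it.

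**Figure D2:**
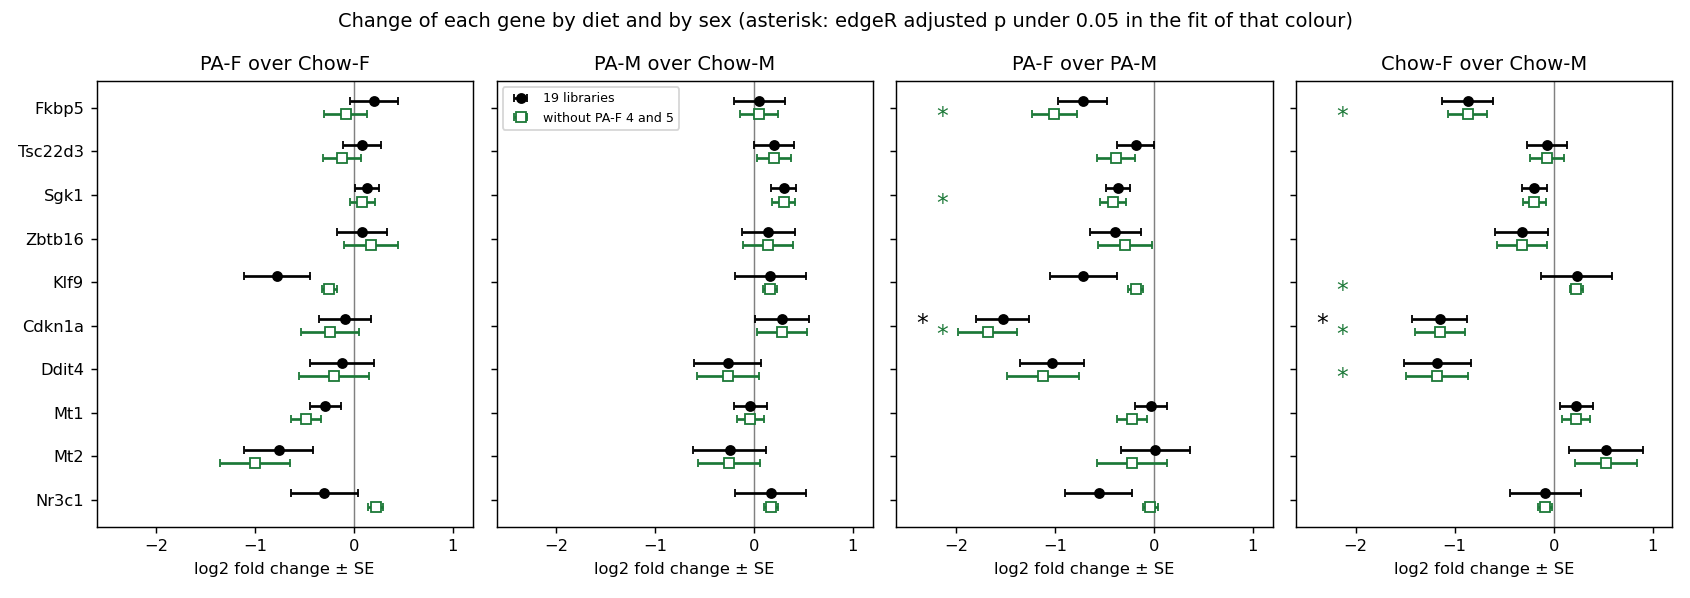
Log2 fold change of each gene (x axis, with SE bars) for PA-F over Chow-F, PA-M over Chow-M, PA-F over PA-M and Chow-F over Chow-M. Filled black points use all 19 libraries and open green squares leave out PA-F 4 and 5. Asterisks mark an adjusted p under 0.05. No asterisk stands in the diet panels, and Cdkn1a carries both colours in both sex panels.

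Klf9, a transcription factor that glucocorticoids and thyroid hormone induce, gave the largest diet difference of the 10 in females when all libraries were used, close to that of Mt2 (-0.78 and -0.76 on the log2 scale). It had 49.4, 44.4, 47.7, 13.5 and 8.06 CPM in PA-F 1 to 5, against 50.3, 53.1, 54.7, 59.4 and 61.8 CPM in Chow-F 1 to 5. Every PA-F library lay below every Chow-F library, as was so for 1.9% of all genes, and PA-F 4 and 5 were far below the rest. The log2 change was -0.78 ± 0.34 in females (adjusted p = 0.223, edgeR). It was -0.25 ± 0.08 once PA-F 4 and 5 were left out (adjusted p = 0.0611). In males Klf9 had 50.9, 49.1, 53.5, 60.8 and 52.8 CPM in PA-M, against 42.5, 48.9, 50.9 and 48.0 CPM in Chow-M, a log2 change of 0.17 ± 0.36 (adjusted p = 0.999). Klf9 has a GC content of 47.5%, the second lowest of the 10.

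The metallothioneins were lower in PA-F than in Chow-F on average, within the spread of the libraries. Mt2 had 8.59, 4.32, 5.84, 5.31 and 12.6 CPM in PA-F 1 to 5, against 9.94, 10.1, 14.2, 12.4 and 15.3 CPM in Chow-F 1 to 5. A single PA-F library, replicate 5, reached into the Chow-F range. The log2 change was -0.76 ± 0.35 (adjusted p = 0.249, edgeR), and -0.999 ± 0.354 without PA-F 4 and 5 (adjusted p = 0.107). In males Mt2 averaged 7.26 ± 3.70 CPM in PA-M (SD, n = 5) and 8.59 ± 4.03 CPM in Chow-M (n = 4), with Chow-M 2 at 14.6 CPM and the other 3 at 6.07 to 7.31.

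Mt1, which lies beside Mt2 on the same strand, ranged from 50.6 to 89.1 CPM in PA-F and from 63.5 to 103 CPM in Chow-F. Its log2 change was -0.29 ± 0.16 in females (adjusted p = 0.327) and -0.03 ± 0.17 in males (adjusted p = 0.999). Without PA-F 4 and 5 the female value was -0.48 ± 0.15 and did not pass (adjusted p = 0.0696, edgeR). Of 9 tested genes of the metal response list, which includes both, 0 passed for diet in either sex. All genes called were 2.54% in females and 0.765% in males. Without PA-F 4 and 5, 1 rose and 1 fell in females and 0 passed in males, beside 5.14% and 2.63% of all genes. Mtf1, the transcription factor that reads metal response elements, was lower in Chow-F than in Chow-M by 0.27 on the log2 scale (-0.27 ± 0.06, adjusted p = 0.0283), a call lost when any of 6 libraries was left out. Hmox1, a haem-degrading enzyme, was higher in PA-F than in PA-M by 0.33 ± 0.10 (adjusted p = 0.0474), and lost that call without PA-F 4 and 5 (adjusted p = 0.106).

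Sgk1 had the smallest p for diet in males. It had 95.6, 82.9, 100, 94.3 and 104 CPM in PA-M, against 66.6, 88.6, 64.6 and 90.2 CPM in Chow-M 1, 2, 3 and 5. The groups overlap, since PA-M 2 lies below Chow-M 2 and 5. The log2 change was 0.30 ± 0.13 (adjusted p = 0.495, edgeR). In females Sgk1 had 64.7, 67.5, 83.6, 84.8 and 70.1 CPM in PA-F, against 54.8, 57.5, 73.8, 78.6 and 73.7 CPM in Chow-F, a log2 change of 0.13 ± 0.12 (adjusted p = 0.554).

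Fkbp5, a co-chaperone that lowers the receptor's hormone affinity and is induced by it, gave no call for diet. Its log2 change was 0.20 ± 0.25 in females (adjusted p = 0.661, edgeR) and 0.06 ± 0.26 in males (adjusted p = 0.999). Tsc22d3, an anti-inflammatory leucine zipper protein, changed by 0.08 ± 0.19 and 0.20 ± 0.20 on that scale in females and males (adjusted p = 0.833 and 0.955). Zbtb16, a zinc finger transcription factor, gave 0.08 ± 0.25 and 0.15 ± 0.27 (adjusted p = 0.883 and 0.999). Without PA-F 4 and 5 the female values of Fkbp5 and Tsc22d3 were -0.08 ± 0.22 and -0.12 ± 0.19, the opposite direction in both.

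In a list of 30 other genes that glucocorticoids can induce, all of which were tested, 2 passed for diet in females and 2 in males, beside 2.54% and 0.765% of all genes. Pdk4, a kinase that shuts off pyruvate oxidation and is also a target of PPAR-alpha, averaged 864 ± 176 CPM in PA-F and 317 ± 81.1 CPM in Chow-F (SD, n = 5 each). It averaged 1496 ± 200 CPM in PA-M (n = 5) and 269 ± 43.2 CPM in Chow-M (n = 4). The log2 rise was 1.45 ± 0.17 in females and 2.48 ± 0.19 in males (adjusted p = 0.000397 and 1.18e-06, edgeR). Angptl4, a secreted inhibitor of lipoprotein lipase with the same pair of inputs, rose in males by 2.85 ± 0.42 (adjusted p = 0.00242). Rgs2, a brake on G protein signalling, fell by 0.48 in females (-0.48 ± 0.12, adjusted p = 0.0348), and leaving out any of 5 libraries ended that call.

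Across the list of 30, 1 gene rose and 1 fell in females, and 2 rose and 0 fell in males. In the fit without PA-F 4 and 5, 1 rose and 2 fell in females, and 2 rose and 2 fell in males, beside 5.14% and 2.63% of all genes. The median change of the 30 was -0.05 in females and 0.11 in males, beside -0.02 and 0.00 over all genes, and -0.12 and 0.11 without PA-F 4 and 5. Ptgds, which encodes a prostaglandin D synthase and is named here after its values were seen, was called by edgeR in both sexes without those libraries and in neither with them. It averaged 136 ± 81.5 CPM in PA-F and 245 ± 50.8 CPM in Chow-F (SD, n = 5 each), and 127 ± 18.6 CPM in PA-M (n = 5) and 279 ± 35.3 CPM in Chow-M (n = 4). Its log2 change was -0.85 ± 0.27 in females and -1.14 ± 0.29 in males with all libraries (adjusted p = 0.1 and 0.0884, edgeR), and -1.56 ± 0.16 and -1.14 ± 0.13 without PA-F 4 and 5 (adjusted p = 2.39e-05 and 7.07e-05). It also passed in both sexes without PA-F 5 alone (adjusted p = 0.00412 and 0.00604). DESeq2 called it with all libraries (adjusted p = 0.0396 and 0.0128). Per1, a clock gene with a known receptor element, was not called in any comparison and averaged 64.0 ± 15.8 CPM in PA-F, 59.3 ± 23.6 in Chow-F, 48.1 ± 9.36 in PA-M and 38.4 ± 9.29 in Chow-M.

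The comparison of the sexes asked whether the same genes stood at different levels in female and male hearts on each diet. Cdkn1a, the cell cycle inhibitor p21 and a shared target of p53 and the glucocorticoid receptor, was the one member called with all 19 libraries. On high fat it had 11.2, 9.06, 10.8, 11.7 and 14.5 CPM in PA-F 1 to 5, against 28.4, 25.6, 33.4, 37.5 and 40.0 CPM in PA-M 1 to 5. On chow it had 7.14, 6.49, 17.4, 10.7 and 19.3 CPM in Chow-F 1 to 5, against 19.3, 34.6, 22.0 and 32.4 CPM in Chow-M 1, 2, 3 and 5. All 10 female libraries lay below all 9 male ones. On chow, though, the highest female (19.26 CPM) and the lowest male (19.33 CPM) nearly met. The share of all genes apart in this way over both diets was not computed.

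Cdkn1a was lower in females by 1.53 on the log2 scale on high fat (-1.53 ± 0.27, adjusted p = 0.00199, edgeR), and this call held when each library was left out in turn. On chow the difference was -1.15 ± 0.28 (adjusted p = 0.0283). That call ended without Chow-F 1 (adjusted p = 0.0695), Chow-F 2 (0.0534), Chow-F 4 (0.0707), Chow-M 2 (0.116) or Chow-M 5 (0.0821). Without PA-F 4 and 5 both calls held (adjusted p = 0.0016 on high fat and 0.00693 on chow). The gene lies at chr17:29090976-29100727 on the plus strand in GRCm38. Its difference stood in the main first exon too, with 1.13 ± 0.24 CPM in PA-F and 3.26 ± 0.53 CPM in PA-M (SD, n = 5 each), and 1.25 ± 0.55 CPM in Chow-F (n = 5) and 2.83 ± 0.65 CPM in Chow-M (n = 4). The upstream first exon held only 1 to 13 counts per library. It had 0.126 ± 0.037 CPM in PA-F and 0.098 ± 0.071 in PA-M, and 0.047 ± 0.026 in Chow-F and 0.063 ± 0.007 in Chow-M.

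In the background of these counts, 3.22% of all genes were called between the sexes on chow and 10.3% on high fat. The 1 member of 10 called on high fat is therefore at the background share. Calls restricted to genes lower in females made up 1.49% on chow and 3.94% on high fat. Groups that did not overlap, with females lower, were seen for Cdkn1a on chow and for Cdkn1a and Ddit4 on high fat, and for 6.1% and 5.22% of all genes. The median log2 difference of the 10 was -0.14 on chow and -0.47 on high fat, beside 0.01 in both over all genes. Without PA-F 4 and 5 it was -0.14 on chow and -0.34 on high fat, beside 0.010 and 0.002 over all genes.

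Ddit4, an inhibitor of mTORC1 that glucocorticoids, hypoxia and energy stress induce, differed by a similar size. It had 19.6, 13.6, 24.3, 26.3 and 17.4 CPM in PA-F, against 45.6, 34.9, 47.6, 42.4 and 36.4 CPM in PA-M. On chow it had 10.3, 12.4, 26.6, 22.1 and 38.4 CPM in Chow-F, against 27.5, 52.8, 35.1 and 83.1 CPM in Chow-M. The groups were apart on high fat and overlapped on chow, where Chow-F 5 lay above Chow-M 1 and 3. The log2 differences of -1.03 ± 0.33 on high fat and -1.18 ± 0.34 on chow missed the threshold (adjusted p = 0.0509 and 0.0700, edgeR).

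Other settings moved Ddit4 across the line. With DESeq2 and all libraries the adjusted p was 0.0131 on high fat and 0.0141 on chow, and with the GC covariate per library 0.0318 and 0.0488. With only the groups compared it was 0.0136 and 0.0641. On high fat the adjusted p was 0.0346 to 0.0467 without Chow-F 1, 2 or 5 or Chow-M 1 or 5. On chow it was 0.0224 without Chow-F 5 and 0.0489 without Chow-M 1. Without PA-F 4 and 5 it was 0.0535 on high fat and 0.0218 on chow.

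Fkbp5 was lower in 8 of 10 female libraries than in every male library. The share of all genes for which as much held was not computed. It had 9.25, 9.07, 8.87, 9.12 and 18.8 CPM in PA-F 1 to 5, against 15.5, 12.4, 18.3, 25.4 and 19.1 CPM in PA-M 1 to 5. It had 8.10, 7.42, 9.79, 7.85 and 14.7 CPM in Chow-F 1 to 5, against 13.2, 22.7, 15.7 and 18.2 CPM in Chow-M 1, 2, 3 and 5. The exceptions were PA-F 5 and Chow-F 5, each of which reached into the range of the males.

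The log2 difference of Fkbp5 was -0.72 ± 0.25 on high fat and -0.87 ± 0.26 on chow (adjusted p = 0.0678 and 0.0791, edgeR), and neither passed. Both passed once PA-F 4 and 5 were left out, at -1.01 ± 0.22 (adjusted p = 0.00803) and -0.87 ± 0.20 (adjusted p = 0.00798). Without PA-F 5 alone the adjusted p was 0.00772 and 0.0199. With DESeq2 and all libraries it was 0.0313 and 0.0248, and in edgeR with the replicate number as a block 0.036 and 0.045. With only the groups compared it was 0.141 and 0.0159. The high-fat difference also passed without PA-M 2 (adjusted p = 0.0479) and the chow difference without Chow-F 5 (0.0291). Fkbp5 lies at chr17:28399094-28517527 on the minus strand in GRCm38.

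Of the rest, Sgk1 gave a log2 difference of PA-F over PA-M of -0.36 ± 0.12 (adjusted p = 0.0600, edgeR), and of -0.41 ± 0.13 without PA-F 4 and 5 (adjusted p = 0.0461). Without PA-M 2 alone its adjusted p was 0.0491. On chow Sgk1 gave -0.20 ± 0.13 (adjusted p = 0.504). Klf9 gave -0.71 ± 0.34 on high fat (adjusted p = 0.166), and -0.18 ± 0.08 without PA-F 4 and 5 (adjusted p = 0.126). It had a positive difference on chow, where Chow-F averaged 55.9 ± 4.69 CPM (SD, n = 5) and Chow-M 47.6 ± 3.59 CPM (n = 4). That difference was 0.23 ± 0.36 with all libraries (adjusted p = 0.857) and 0.23 ± 0.07 without PA-F 4 and 5 (adjusted p = 0.0386). With only the groups compared it was 0.23 and did not pass (adjusted p = 0.058, edgeR).

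The other 5 members gave no call between the sexes in either fit. Tsc22d3 differed by -0.18 ± 0.19 on high fat and -0.06 ± 0.20 on chow, and Zbtb16 by -0.39 ± 0.25 and -0.32 ± 0.27. Nr3c1 differed by -0.55 ± 0.34 and -0.09 ± 0.36, and by -0.04 ± 0.08 and -0.09 ± 0.07 without PA-F 4 and 5. Mt1 differed by -0.03 ± 0.16 on high fat and 0.23 ± 0.17 on chow, and Mt2 by 0.02 ± 0.35 and 0.53 ± 0.37. In the fit without PA-F 4 and 5, 3 of the 10 members were called on high fat and 4 on chow, where the background was 10.4% of all genes in both.

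Genes of the clock differed between the sexes in the same libraries. Of 18 tested clock genes, 10 were higher and 5 lower in PA-F than in PA-M, beside 10.3% of all genes called. On chow, 9 were higher and 5 lower in Chow-F than in Chow-M, beside 3.22%. Without PA-F 4 and 5, 10 were higher and 6 lower on high fat, and 11 higher and 6 lower on chow. The share of all genes was then 10.4% on each diet. Dbp, a clock output factor, averaged 111 ± 24.6 CPM in PA-F and 15.2 ± 3.78 CPM in PA-M (SD, n = 5 each), and 91.7 ± 13.7 CPM in Chow-F (n = 5) and 8.94 ± 1.497 CPM in Chow-M (n = 4). Arntl, the core clock activator, averaged 7.55 ± 1.66 CPM in PA-F and 31.0 ± 4.04 CPM in PA-M, and 11.8 ± 2.36 CPM in Chow-F and 37.5 ± 2.19 CPM in Chow-M.

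The Dbp difference of 2.87 ± 0.19 and 3.36 ± 0.21 on the log2 scale (high fat and chow) and the Arntl difference of -2.04 ± 0.15 and -1.67 ± 0.15 all passed (adjusted p from 1.42e-08 to 3.23e-06, edgeR). Nr1d1, a repressor in the clock loop, was higher in females by 1.07 ± 0.10 and 1.24 ± 0.11. Npas2, a partner of Arntl, was lower by 1.59 on high fat (-1.59 ± 0.14) and the repressor Cry1 lower by 0.97 on chow (-0.97 ± 0.08). With diet, Arntl fell in females by 0.65 (-0.65 ± 0.14, adjusted p = 0.0236) and Nfil3, a repressor of Dbp's targets, fell in males by 0.76 (-0.76 ± 0.14, adjusted p = 0.0127). Sex and hour of collection cannot be told apart here, and the part of the clock difference in the Cdkn1a and Fkbp5 values was not tested.

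**Figure D3:**
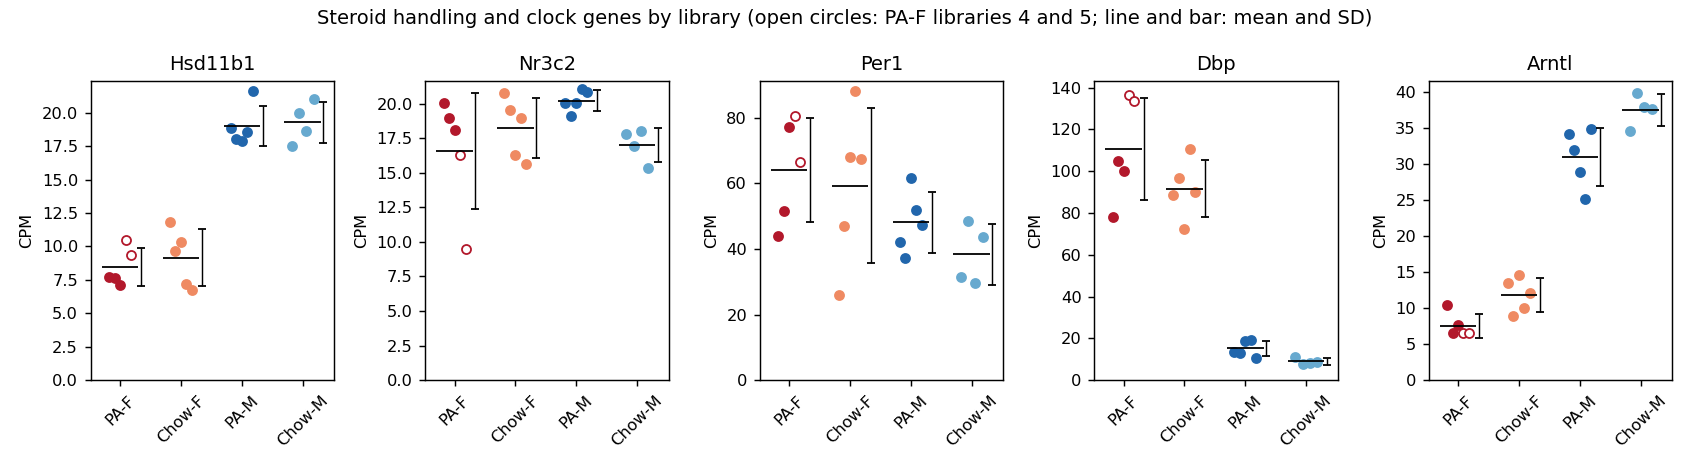
Levels in CPM (y axes, from 0) of the steroid handling genes Hsd11b1 and Nr3c2 and the clock genes Per1, Dbp and Arntl in each library, by group. Points are libraries, open circles are PA-F 4 and 5, lines are means and bars SDs. Hsd11b1 and Arntl are lower and Dbp higher in every female library than in every male library, and Per1 overlaps between all groups. The sexes did not overlap for 11.7% of all genes on chow and 10% on high fat. The share over both diets was not computed.

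Cell type markers were read beside the sex difference. In bulk tissue, fewer cells of a type and less RNA per cell cannot be told apart. Of the 8 cardiomyocyte markers, 0 were called between the sexes on either diet, and their sum was 81900 to 91840 CPM in PA-F, 83860 to 90270 in PA-M, 91030 to 98480 in Chow-F and 92640 to 99600 in Chow-M. Of 5 fibroblast markers, 3 were higher in PA-F than in PA-M, with sums of 1134 to 1416 and 976 to 1079 CPM, and 1 was higher in Chow-F than in Chow-M. The summed immune markers were 25.3 to 37.4 CPM in PA-F, 26.2 to 35.1 in PA-M, 26.4 to 34.6 in Chow-F and 31.8 to 41.5 in Chow-M, with 1 of 6, Cd68, higher in PA-F than in PA-M. The 5 endothelial and 5 blood markers gave 0 calls between the sexes. All genes called were 10.3% on high fat and 3.22% on chow. Without PA-F 4 and 5, 1 cardiomyocyte and 2 immune markers were lower in Chow-F than in Chow-M. The other counts of these lists stayed as given, and the share of all genes was then 10.4% on each diet. Adipocyte markers summed to at most 2.63 CPM in any library. The part of fibroblast content in the Cdkn1a difference was not tested.

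Lists around the inputs of Cdkn1a, Ddit4 and Sgk1 were read beside the shares of all genes called between the sexes, 10.3% on high fat and 3.22% on chow. Of 12 p53 targets, Cdkn1a was the 1 lower in females on each diet, and Phlda3, an Akt repressor induced by p53, was the 1 higher, by 0.36 ± 0.09 on high fat and 0.41 ± 0.10 on chow (adjusted p = 0.0182 and 0.0254, edgeR). The Phlda3 call on high fat was lost without PA-F 4 and 5 (adjusted p = 0.0776), and on chow when any of 5 libraries was left out. The medians of the 12 were 0.02 on both diets. Of 12 genes around mTORC1, Eif4ebp1 was higher on high fat (0.30 ± 0.09, adjusted p = 0.0354), and on chow Txnip was higher (0.83 ± 0.22, adjusted p = 0.0453) and Tsc1 lower (-0.28 ± 0.06, adjusted p = 0.0141).

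Each of those 3 calls was lost on leaving out 1 or another library. Of 10 genes of the Sgk1 branch, Wnk4, a kinase of salt transport, was higher in females by 0.67 ± 0.10 on high fat and 0.53 ± 0.10 on chow (adjusted p = 0.000375 and 0.00707), and held in every fit with a library left out. Sgk3 and Pdpk1, the paralogue and the activating kinase of Sgk1, were lower on high fat by 0.55 (-0.55 ± 0.17, adjusted p = 0.0489) and 0.22 (-0.22 ± 0.06, adjusted p = 0.0305), and both calls were lost on leaving out single libraries. In the fit without PA-F 4 and 5, 0 p53 targets were higher and 2 lower on high fat, and 1 higher and 2 lower on chow. Of the mTORC1 list, 0 were higher and 1 lower on high fat, and 2 higher and 4 lower on chow. Of the Sgk1 branch, 1 was higher and 2 lower on high fat, and 1 higher and 1 lower on chow, and all these stand beside 10.4% of all genes on each diet. Each list holds the member it surrounds. Among the genes counted as lower in that fit are Cdkn1a on each diet, Ddit4 on chow and Sgk1 on high fat.

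In the list of 30 further induced genes, 3 were lower in PA-F than in PA-M and 3 higher in Chow-F than in Chow-M. Errfi1, a feedback inhibitor of the EGF receptor, averaged 11.5 ± 1.995 CPM in PA-F and 22.6 ± 4.25 CPM in PA-M (SD, n = 5 each), a log2 difference of -0.98 ± 0.25 (adjusted p = 0.0191, edgeR) that was lost without PA-M 3 (adjusted p = 0.0537). Pdk4 was lower in PA-F than in PA-M by 0.79 (-0.79 ± 0.17, adjusted p = 0.00674) and Mertk, a receptor for the clearance of dead cells, by 0.34 (-0.34 ± 0.07, adjusted p = 0.00827). On chow, Rgs2 was higher in Chow-F by 0.71 ± 0.12 (adjusted p = 0.00366), Rasd1, a small G protein named for its induction by dexamethasone, by 0.84 ± 0.17 (adjusted p = 0.00962), and Angptl4 by 1.54 ± 0.41 (adjusted p = 0.0449). The Angptl4 call was lost when any of 14 libraries was left out. In the fit without PA-F 4 and 5, 6 were lower and 0 higher on high fat, and 3 were higher and 3 lower on chow. The medians of the 30 with all libraries were -0.16 on high fat and -0.02 on chow, beside 0.01 in both over all genes, and -0.25 and -0.02 without PA-F 4 and 5. All genes called were 10.3% on high fat and 3.22% on chow, and 10.4% on each without PA-F 4 and 5.

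A separate question was whether libraries high in Fkbp5 within their own group were also high in the other members. Each level was written as log2(CPM + 1) less its group mean over 17 libraries, with PA-F 4 and 5 left out. Pearson's r, Spearman's rho and 2-sided permutation tests within groups (100000 draws) were computed for 9 relations, with Benjamini-Hochberg adjustment over the 9. Of these, 6 passed on both measures. Cdkn1a followed Fkbp5 most closely, with r = 0.80 and rho = 0.88 (permutation p = 0.00011 and 0.00017, adjusted 0.00099 and 0.00153). Mt1 gave r = 0.79 and rho = 0.80 (permutation p = 0.0007 and 0.00182, adjusted 0.00315 and 0.00819). Mt2 gave r = 0.68 and rho = 0.68 (permutation p = 0.00618 and 0.00657, adjusted 0.0139 and 0.0197).

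Those 3 relations held without the 2 libraries farthest from the median of Fkbp5, Chow-F 5 and PA-M 4, at r = 0.78, 0.72 and 0.77 (n = 15, adjusted permutation p = 0.00243, 0.0106 and 0.0242). Klf9, Tsc22d3 and Ddit4 gave r = 0.73, 0.68 and 0.61 and rho = 0.61, 0.67 and 0.60 over the 17 libraries (permutation p of r = 0.0058, 0.00906 and 0.0188, adjusted 0.0139, 0.0163 and 0.0282). Without those 2 libraries r was 0.47, 0.51 and 0.52 and none of the 3 passed (adjusted permutation p = 0.156, 0.0771 and 0.118). Zbtb16 and Sgk1 gave r = 0.53 and 0.52 and rho = 0.57 and 0.49 (permutation p of r = 0.0689 and 0.0517, adjusted 0.0775 and 0.0665) and rose to 0.75 and 0.64 without the pair (adjusted permutation p = 0.0442 in both). Nr3c1 gave r = -0.38 and rho = -0.47 (permutation p = 0.179 and 0.085), and -0.34 without the pair.

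**Figure D4:**
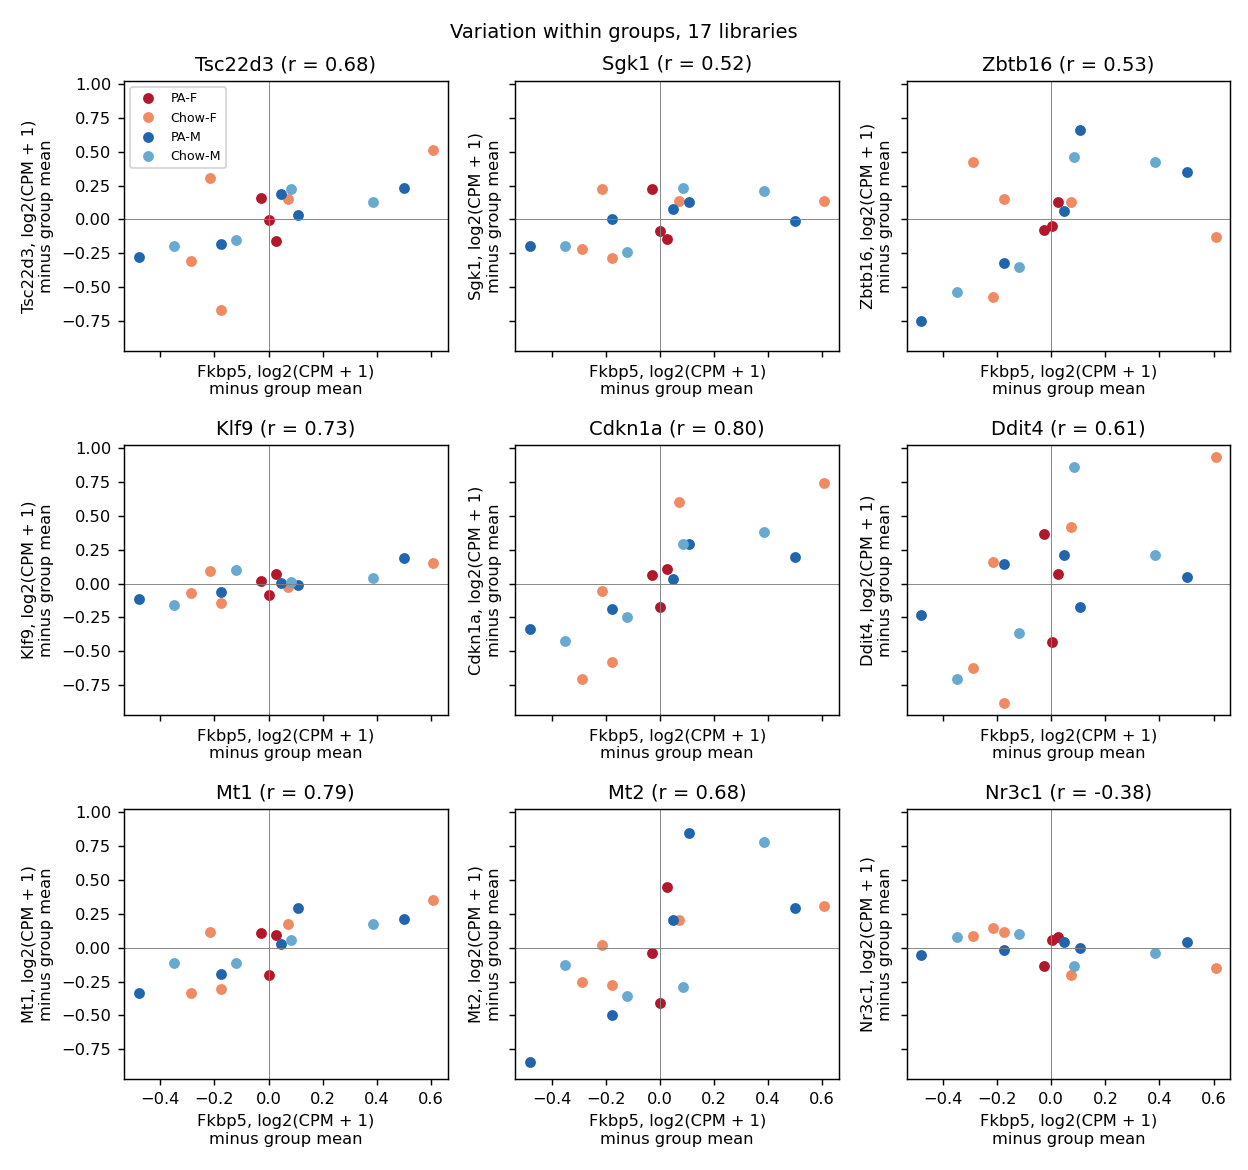
Level of each member (y axis) against that of Fkbp5 (x axis), both as log2(CPM + 1) minus the group mean, in 17 libraries coloured by group. Points of Cdkn1a, Mt1 and Mt2 run upward with Fkbp5 (r = 0.80, 0.79 and 0.68), and those of Nr3c1 do not (r = -0.38).

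Measures of the libraries themselves were set against Fkbp5 in the same way, a family of 6 chosen after the data were seen. The GC slope gave r = 0.18 and rho = 0.22, log2 Malat1 0.30 and 0.25, and log2 total counts -0.29 and -0.39. Summed blood markers gave 0.42 and 0.32, summed cardiomyocyte markers 0.24 and 0.24, and Dbp -0.03 and -0.14. The permutation p of r was 0.154 for blood markers and 0.269 or more for the others, and after adjustment over the 6 none was under 0.477. Without the farthest pair of libraries these r values were 0.14, 0.20, -0.36, 0.09, 0.13 and -0.40.

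Across the 13507 genes that averaged 1 CPM or more, the pattern most like that of Fkbp5 over the 17 libraries was that of Pgk1, a glycolytic enzyme, with r = 0.91. Psma2, a proteasome subunit, Map3k6, a kinase, and Pdhb, a subunit of pyruvate dehydrogenase, ranked 2, 4 and 5 with r = 0.89, 0.89 and 0.87. Of the members, Cdkn1a ranked 26 and Mt1 37, then Klf9 124, Mt2 231, Tsc22d3 232, Ddit4 540, Zbtb16 927 and Sgk1 1030. Nr3c1 ranked 11608. These ranks are a description over the same 17 libraries and carry no test.

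The exon pieces allowed first exons to be read apart for 3 members. The pieces were picked after counts had been seen in 1 library, and no test was made on them. Tsc22d3 has a short form, whose protein is the anti-inflammatory one, and a long form from a start farther upstream. The short first exon, at chrX:140542846-140543101, had 6.24 ± 1.52 CPM in PA-F and 5.81 ± 2.73 CPM in Chow-F (SD, n = 5 each), and 7.24 ± 1.52 CPM in PA-M (n = 5) and 6.39 ± 1.27 CPM in Chow-M (n = 4). The long first exon, at chrX:140598128-140598558, had 3.58 ± 0.63 CPM in PA-F and 3.15 ± 0.42 in Chow-F, and 3.24 ± 0.17 in PA-M and 3.43 ± 0.24 in Chow-M. Within Chow-F the short exon ran from 2.47 to 9.44 CPM, while the long one ran from 2.78 to 3.69.

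Sgk1 showed a comparable pair. Its upstream first exon, at chr10:21993890-21994181, starts at the base after the promoter printed above with the receptor palindrome. It had 0.859 ± 0.201 CPM in PA-F and 0.698 ± 0.193 CPM in Chow-F (SD, n = 5 each), and 0.909 ± 0.129 CPM in PA-M (n = 5) and 0.786 ± 0.201 CPM in Chow-M (n = 4). The main first exon, at chr10:21994711-21994825, had 1.33 ± 0.24 CPM in PA-F and 1.21 ± 0.28 in Chow-F, and 1.81 ± 0.14 in PA-M and 1.60 ± 0.28 in Chow-M. Counts in the upstream exon were 33 to 75 per library, and its groups overlapped. Per kilobase the main exon was the higher in every group, for example 11.6 and 2.94 CPM per kilobase in PA-F for the main and the upstream exon.

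**Figure D5:**
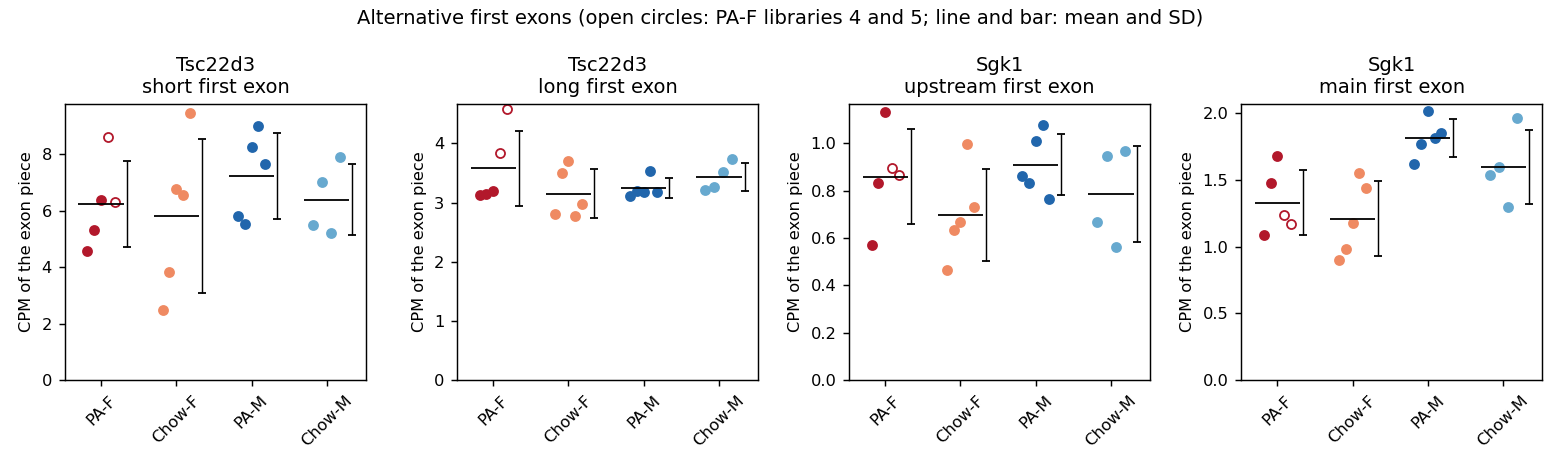
Counts of the alternative first exons of Tsc22d3 and Sgk1 in CPM (y axes, from 0) in each library, by group. Points are libraries, open circles are PA-F 4 and 5, lines are means and bars SDs. The short Tsc22d3 exon spreads from 2.47 to 9.44 CPM in Chow-F, against 2.78 to 3.69 for the long exon.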

How the data were processed

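Heart RNA of 20 libraries was sequenced, of which 19 were compared. The deposited values are whole read counts, per the file contents for 425461 exon pieces in 19 files and for 49315 genes in that of Chow-M 4. The submitters' processing notes name Salmon 1.5.1, DESeq2 1.32.0 and GRCm39. The step that made the counts, and whether it used strand, is not given in the sources used here, so reads of overlapping antisense genes are not separated. The deposited counts were summed per gene ID. Of 33309 pieces with joined IDs, 27970 were given to the 1 gene whose exon holds them and 5339 were not used (1.17% to 1.30% of counts), and no member had such a piece. In GENCODE vM21 of GRCm38, 43610 of 48678 genes (89.6%) had the files' coordinates, so coordinates are given in GRCm38. A read spanning several pieces counts in each, so totals (57805110 to 85794067, and 31686627 for Chow-M 4) overstate reads, and the scatter of libraries sets the precision.

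Genes were tested in R 4.3.3 by the quasi-likelihood F-test of edgeR 4.0.16, with TMM and filterByExpr, 1 fit over 4 groups with 15 residual degrees of freedom, and Benjamini-Hochberg adjustment over 18051 genes, called under 0.05. A zero is read against a floor of 3 counts, which covers counting error only. No pair of libraries within a group agreed within sampling noise. Alternatives were DESeq2 1.42.0, its size factors, no filter, a replicate block, a filter of 1 CPM in at least 5 libraries, fits of only the groups compared, each library left out, PA-F 4 and 5 left out, a GC covariate per library (a trend on gene GC content used as an offset), the largest exon piece, and Chow-M 4 joined. For the relations with Fkbp5 they were all 19 libraries, a pseudocount of 0.1 in place of 1, the 2 farthest libraries left out, and a GC trend taken out (the last chosen after seeing the data). Named genes are the 10 members, Per1, Dbp, Arntl, Hsd11b1 and Nr3c2, up to 4 called genes of smallest p per list and comparison, and the 5 genes most like Fkbp5. Among these, 2 genes are not reported here. The members and lists were chosen with earlier results of these data known. Promoters came from RefSeq's GRCm38.p6 table. A planned comparison of the Mt1 and Mt2 proteins was not made.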

Additional observations from a re-analysis of the deposited data

Results flagged for a closer look

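Within each group, every member was checked for a library far from the others, in 40 gene and group combinations, of which chance marks about 1 in 20. Fkbp5 in PA-F replicate 5 stood at 18.8 CPM, where the nearest of the other 4 PA-F libraries had 9.25 CPM and the lowest 8.87. This is 1 of the 2 libraries that stand apart in GC slope and Malat1, and PA-F replicate 4, the other one, had 9.12 CPM. Mt2 in Chow-M replicate 2 stood at 14.6 CPM, where the nearest of the other 3 Chow-M libraries had 7.31 CPM and the lowest 6.07. The same library had the highest Fkbp5 and Cdkn1a of its group, at 22.7 and 34.6 CPM. What sets these libraries apart was not tested.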

How the results depend on the processing

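The diet comparisons and their difference kept a count of 0 members under every alternative run. On chow, members called between the sexes numbered 1 with all 19 libraries, 3 with DESeq2 and 2 with only the groups compared. The count was 4 without PA-F 4 and 5, 2 with the GC covariate and 3 with Chow-M 4 joined. It was 0 to 3 when a library was left out. All genes called on chow were 3.22%, 5.18% with DESeq2 and 8.88% with only the groups compared. Without PA-F 4 and 5 they were 10.4%. For the other settings the gene totals are given below. Chow-M 4 was counted per gene, so values with it joined, here and below, mix different ways of counting and do not measure stability. On high fat the count of 1 became 4 with DESeq2, 2 with its size factors, 3 with the stricter filter, 2 with only the groups compared, 3 without PA-F 4 and 5, 2 with the GC covariate, 2 with the largest exon piece and 1 to 3 when a library was left out. All genes called on high fat were 10.3%, 14.3% with DESeq2 and 3.22% with only the groups compared. Without PA-F 4 and 5 they were 10.4%. Libraries that share a number did not deviate together (correlations from -0.067 to 0.161, over 0.1 in 2 of 27 pairs), so the numbers were not read as pairs. The replicate block gave 2 members on chow and 4 on high fat, beside 2.54% and 10.4% of all genes. In all it called 341, 85, 0, 459 and 1881 genes in the order used next.

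Genes called in all were 458, 138, 0, 582 and 1867 for high fat in females, high fat in males, the difference of those effects, sex on chow and sex on high fat. They were 969, 254, 49, 896 and 2432 with DESeq2, 195, 84, 0, 351 and 1107 without a filter, 939, 480, 0, 1910 and 1900 without PA-F 4 and 5, and 70, 84, 0, 484 and 615 with Chow-M 4 joined. With the largest exon piece they were 254, 90, 1, 356 and 1531, and with only the groups compared 21, 571, 1541 and 546, with no value for the difference. With the size factors of DESeq2 they were 438, 124, 0, 543 and 1819, and with the stricter filter 597, 149, 0, 629 and 2048. With the GC covariate they were 316, 123, 0, 673 and 1353. One library left out gave 219 to 932, 42 to 198, 0 to 5, 261 to 857 and 1094 to 3532. The causes were not tested.

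Changes of sign touched log2 changes that had not passed. Without PA-F 4 and 5, diet in females became -0.0841 for Fkbp5, -0.12 for Tsc22d3 and 0.22 for Nr3c1, the difference of diet effects became -0.14 for Fkbp5, 0.0306 for Zbtb16 and 0.0515 for Nr3c1, and Mt2 between the sexes on high fat became -0.22. Mt2 there was -0.12 with the GC covariate. With Chow-M 4 joined, which was counted per gene, diet in males became -0.0241 for Fkbp5, -0.0194 for Zbtb16 and -0.13 for Klf9. In that setting the difference became 0.10 for Zbtb16, and Klf9 between the sexes on chow became -0.0672. These values mix different ways of counting.

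With 1 library left out, sign changes for diet in females gave ranges of -0.25 to 0.13 for Cdkn1a, -0.30 to 0.18 for Ddit4, -0.078 to 0.41 for Fkbp5, -0.0543 to 0.22 for Tsc22d3 and -0.0422 to 0.20 for Zbtb16. For diet in males they gave -0.46 to 0.10 for Ddit4, -0.10 to 0.21 for Fkbp5, -0.11 to 0.0445 for Mt1, -0.54 to 0.14 for Mt2 and -0.0488 to 0.31 for Zbtb16. For the difference they gave -0.22 to 0.44 for Ddit4, -0.14 to 0.35 for Fkbp5, -0.26 to 0.021 for Tsc22d3 and -0.23 to 0.13 for Zbtb16. Between the sexes they gave -0.16 to 0.0512 for Mt1 and -0.28 to 0.31 for Mt2 on high fat, and -0.21 to 0.073 for Tsc22d3 on chow.

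Of the relations with Fkbp5, 6 passed over 17 libraries and 5 over all 19, where Klf9 turned to r = -0.36 (adjusted permutation p = 0.203), Ddit4 missed at 0.42 (0.118) and Nr3c1 passed at -0.54 (0.0423). With the GC trend taken out, a setting chosen after seeing the data, 6 passed. Depth limits the first exons of Sgk1 and the values of Hsd11b2 more than those of the members.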

Other observations

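Chow-M replicate 4, which the comparisons leave out, holds counts per gene out of a total of 31686627. It had 714 counts of Fkbp5, 2731 of Tsc22d3, 2062 of Sgk1, 1565 of Zbtb16 and 3256 of Klf9. It had 1511 counts of Cdkn1a, 1686 of Ddit4, 2508 of Mt1, 303 of Mt2 and 2953 of Nr3c1. These cannot be set on the scale of the other libraries, in which a read can count in several exon pieces.

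With high fat in females, some endothelial and fibroblast markers were called higher, where 2.54% of all genes were called in either direction. Of 5 endothelial markers 3 rose (Pecam1 by 0.20 ± 0.04, Cdh5 by 0.29 ± 0.05 and Tie1 by 0.28 ± 0.06 on the log2 scale, adjusted p = 0.0192, 0.00938 and 0.0155, edgeR), and the Pecam1 call was lost without Chow-F 4 (adjusted p = 0.0559). Of 5 fibroblast markers, the collagen genes Col1a1 and Col3a1 rose by 0.50 ± 0.07 and 0.52 ± 0.08 (adjusted p = 0.00108 and 0.00432). No other marker of the fibroblast list was called. Of 8 cardiomyocyte markers, Tnnt2 fell by 0.31 (-0.31 ± 0.06, adjusted p = 0.0138). Without PA-F 4 and 5, 4 of the 8 fell, beside 5.14% of all genes called. In males 0 markers of these 3 lists passed, beside 0.765% of all genes. With only the groups compared, Col1a1 alone of these 6 genes kept an adjusted p under 0.05 (0.0360). The difference between the sexes in these diet effects passed for 0 of them. Without PA-F 4 and 5, 4 of 5 blood markers also rose with high fat in females, beside 5.14% of all genes. With all libraries 0 blood markers did, beside 2.54%.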
